A study of Rattus norvegicus with 4 samples.

Results

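Saa3, Lcn2, Pla2g2a, Slpi, Camp, Defb1, Defb4, Lyz2 and Pglyrp1 encode antibacterial proteins that are released onto mucosal surfaces, and their transcripts were compared between the epithelium around implants and the epithelium around teeth. These 9 genes were taken as the probe sets whose single gene symbol in the platform annotation was one of these names. All 9 were on the array, with 1 probe set each, among 14217 genes and 31042 probe sets in all. The genes were chosen by their log2 signals on these same 4 arrays, peri-implant against junctional, so the values are a description and were given no test.

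The arrays hold RNA of epithelium cut out by laser microdissection from frozen sections of male Sprague Dawley rats. Animals were 4 weeks old at surgery, when an upper molar was extracted and a titanium alloy implant placed, and tissue was taken from 20 rats 4 weeks later. There were 2 arrays of junctional epithelium, the collar that attaches the gingiva to a tooth, and 2 of peri-implant epithelium, its counterpart against the implant. All 4 samples carry the same label for extraction and implant placement. How many rats gave RNA to each array, and whether replicates came from separate animals, is not stated in the labels, so p-values measure only the spread between these samples.

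Mucosal epithelium lives beside a dense bacterial community and holds it back partly with secreted proteins. Some starve bacteria, such as lipocalin 2, which binds the siderophores with which bacteria collect iron. Others break the envelope: lysozyme cuts peptidoglycan, group IIA phospholipase hydrolyses bacterial membrane lipids, and cathelicidin and the beta-defensins are cationic peptides that permeabilize membranes. Several are made both by epithelial cells and by neutrophils, which store lipocalin 2, cathelicidin, lysozyme and peptidoglycan recognition protein 1 in granules. Junctional epithelium is known for the neutrophils that pass through it. Transcription of several of these genes is raised by interleukin 1, interleukin 17 and bacterial products through NF-kB, its partner IkB-zeta (Nfkbiz) and C/EBP factors.

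Promoter sequence is shown for the 3 genes with the highest peri-implant over junctional differences among those above background in peri-implant epithelium. Each run comes from RefSeq (assembly GRCr8), reads 5' to 3' on the gene's strand and ends at the base before the annotated gene. Capitals mark matches to the NF-kB kappaB consensus or to the C/EBP letters TTNNGNAA on either strand. The runs lie at chr1:106358433-106358680 on the minus strand for Saa3, chr3:36081852-36082030 on the minus strand for Lcn2, and chr5:156359475-156359724 on the plus strand for Pla2g2a.
Saa3: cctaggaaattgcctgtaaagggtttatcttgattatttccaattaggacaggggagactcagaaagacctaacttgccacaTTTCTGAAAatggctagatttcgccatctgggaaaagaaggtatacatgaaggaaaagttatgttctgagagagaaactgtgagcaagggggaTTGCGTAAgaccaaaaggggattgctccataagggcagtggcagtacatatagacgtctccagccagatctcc
Lcn2: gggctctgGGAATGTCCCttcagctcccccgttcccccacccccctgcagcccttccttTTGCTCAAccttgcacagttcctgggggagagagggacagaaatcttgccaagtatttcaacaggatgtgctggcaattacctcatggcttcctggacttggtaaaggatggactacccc
Pla2g2a: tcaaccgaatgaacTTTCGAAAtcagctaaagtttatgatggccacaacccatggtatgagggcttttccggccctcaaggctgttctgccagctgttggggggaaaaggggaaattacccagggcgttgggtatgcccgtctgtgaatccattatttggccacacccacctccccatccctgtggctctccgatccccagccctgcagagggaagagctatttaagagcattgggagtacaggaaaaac
In Lcn2 the first capitals are the kappaB match GGAATGTCCC and the others the C/EBP match TTGCTCAA. Saa3 and Pla2g2a carried C/EBP matches and no kappaB match in these letters, TTGCGTAA being the one nearest the start site of Saa3. Over the windows of 300 bases (250 before and 50 after the start site) that were at hand for 6 of the 9 genes, the kappaB consensus matched in Lcn2, Camp and Pglyrp1, against 7.51% of all 33469 windows. The C/EBP letters matched in Saa3, Lcn2, Pla2g2a and Lyz2, against 41.3% of all windows, and may overlap one another. The AP-1 letters TGANTCA matched in Pglyrp1 alone of the 6 (7.33% of all windows). Neither the STAT letters TTCNNNGAA (8.87%) nor TATAAA (14.2%) matched in any of the 6. A match describes letters, not a bound site, and the absence of one says only that these letters are not in the window.

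The values are log2 signals, and 6.42 serves as the background level, the highest signal reached by 27 unspiked bacterial control probe sets. Between 54.6% and 56.8% of probe sets exceeded it on each array. As a check of RNA integrity, the Gapdh probe set at the 3' end exceeded that at the 5' end by 0.68 and 0.58 on junctional and by 0.52 and 0.53 on peri-implant arrays. For actin this excess was larger, 1.30 and 1.47 on junctional and 1.37 and 1.26 on peri-implant arrays. Hybridization controls averaged 13.70 to 13.76 on 3 arrays and 14.03 on the first peri-implant array. All 14 measured keratinocyte markers exceeded background in at least 1 group, with Krt5 from 15.84 to 16.23 and Krt14 from 15.73 to 16.10. The 2 measured markers of enamel organ and junctional epithelium, Ambn and Amelx, lay below background on every array, so the junctional label was not checked by its own markers.

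Of the 9 genes, 7 had a higher mean in peri-implant epithelium and 2, Defb4 and Pglyrp1, a lower one. In all 9 the arrays of the groups did not overlap. On the whole array, 31.2% of genes did not overlap with peri-implant epithelium higher and 25.2% with it lower. Above 1 on the log2 scale lay 5 of the 9 differences and below -1 lay 1, where 13.0% and 9.31% of all genes did so. Camp is in the counts of 7 higher, 9 without overlap and 5 above 1, although it lay below background on every array. The median difference of the 9 genes was 1.44, or 0.66 once lower signals were set to background, and that of all genes 0.05 and 0.00. These counts come from the contrast with which the genes were chosen and nothing is read from them. In such pieces of tissue, more cells of a type and more RNA per cell cannot be told apart.

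**Figure D1:**
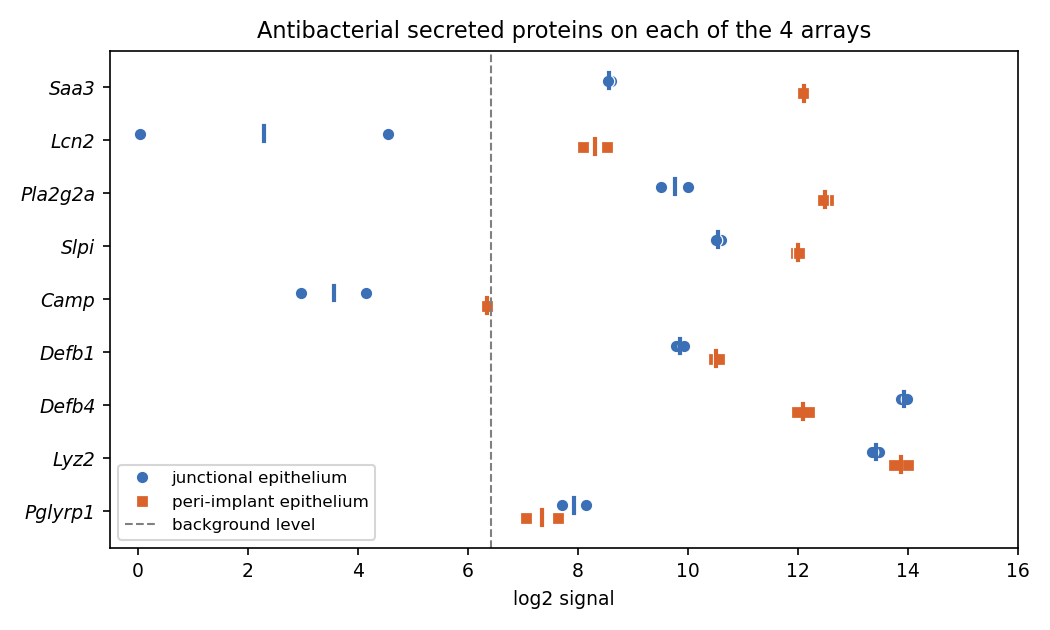
Log2 signal (horizontal axis) of the 9 genes on each array, with circles for the 2 junctional arrays, squares for the 2 peri-implant arrays, short bars for group means and a dashed line at the background level of 6.42. The groups are apart for every gene, Defb4 and Pglyrp1 are lower on the peri-implant side, and Camp lies left of the line on all arrays.

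Saa3 encodes a serum amyloid A of the acute phase that is made outside the liver, by epithelium and macrophages among others. Its log2 signal was 8.60 and 8.55 on the junctional arrays and 12.12 and 12.10 on the peri-implant arrays. Both groups were tight and far apart, with a gap of 3.50 between their nearest arrays. The means were 8.57 ± 0.04 and 12.11 ± 0.02 (SD, n = 2 each), an 11.6-fold difference. A larger difference in this direction was found in 120 of the 14217 genes, a rank that follows from how the genes were chosen. In probe sets of a signal within 0.5 of the junctional mean, replicate arrays differed by a median of 0.21 and a 95th percentile of 0.67.

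Lcn2, which encodes the siderophore-binding lipocalin 2, was at 0.05 and 4.56 on the junctional arrays and 8.10 and 8.54 on the peri-implant arrays. Both junctional values lay below background, so their distance from each other has no meaning. Against the background level, Lcn2 was at least 3.73-fold higher in peri-implant epithelium, where its mean was 8.32 ± 0.31 (SD, n = 2). The unbounded log2 difference of 6.02 ran from 3.76 without junctional replicate 1 to 8.27 without junctional replicate 2, and was 1.90 once lower signals were set to background.

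Pla2g2a, the secreted group IIA phospholipase active on Gram-positive bacteria, was at 9.52 and 10.01 on the junctional arrays and 12.55 and 12.46 on the peri-implant arrays. The junctional arrays stood further from each other than the peri-implant ones, yet the nearest arrays of the groups were 2.46 apart. Means were 9.76 ± 0.35 and 12.50 ± 0.06 (SD, n = 2 each), a 6.69-fold difference. A gap of 0.49 between the junctional arrays was close to the 95th percentile of replicate gaps at like signal, 0.48.

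Slpi, the secretory leukocyte protease inhibitor, protects tissue from neutrophil elastase and also kills bacteria. Its values were 10.61 and 10.51 on the junctional arrays and 11.97 and 12.03 on the peri-implant arrays. Each pair agreed within 0.10, and the pairs were 1.36 apart at their nearest. The means of 10.56 ± 0.07 and 12.00 ± 0.04 (SD, n = 2 each) differed 2.71-fold.

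Camp encodes cathelicidin, the precursor of a membrane-active peptide. Its log2 signal was 4.15 and 2.98 on the junctional arrays and 6.33 and 6.36 on the peri-implant arrays. Although the peri-implant pair was higher, no array exceeded background, so no fold is given and the difference was 0.00 with signals raised to background.

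The 2 beta-defensins differed in direction. Defb1, a beta-defensin that epithelia make constitutively, was at 9.79 and 9.94 on the junctional arrays and 10.47 and 10.57 on the peri-implant arrays. The peri-implant pair was higher by a 1.58-fold difference of means, 9.86 ± 0.11 against 10.52 ± 0.07 (SD, n = 2 each). The log2 difference was 0.66, and the nearest arrays of the groups were 0.54 apart.

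Defb4, which RefSeq also lists as Defb2 and Defb3, was at 13.88 and 13.98 on the junctional arrays and 12.20 and 11.99 on the peri-implant arrays. Here the junctional arrays were the high ones, by 1.67 at the nearest pair. The means of 13.93 ± 0.07 and 12.10 ± 0.15 (SD, n = 2 each) put peri-implant epithelium 3.56-fold lower. A larger difference downward was found in 541 of the 14217 genes. Its signal stayed far above background in both epithelia.

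Among the proteins that act on peptidoglycan, Lyz2, a lysozyme of macrophages, neutrophils and glands, was at 13.48 and 13.35 on the junctional arrays and 14.01 and 13.75 on the peri-implant arrays. The nearest arrays were 0.27 apart, and the 2 peri-implant arrays differed by 0.26 from each other. Means were 13.41 ± 0.09 and 13.88 ± 0.18 (SD, n = 2 each), a 1.39-fold difference. Rodents can carry closely related lysozyme genes, and how far this probe set also records a relative was not tested.

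Pglyrp1, which binds peptidoglycan and is stored in neutrophil granules, was at 7.71 and 8.15 on the junctional arrays and 7.06 and 7.64 on the peri-implant arrays. The highest peri-implant array was only 0.07 below the lowest junctional one. Its difference of -0.58 (7.93 ± 0.31 against 7.35 ± 0.41, SD, n = 2 each) was the size of the gap between the 2 peri-implant arrays, 0.58. Without a single array it ran from -0.87 to -0.29. The 2 junctional arrays differed by 0.44, within the 95th percentile of replicate gaps at like signal, 0.82.

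**Figure D2:**
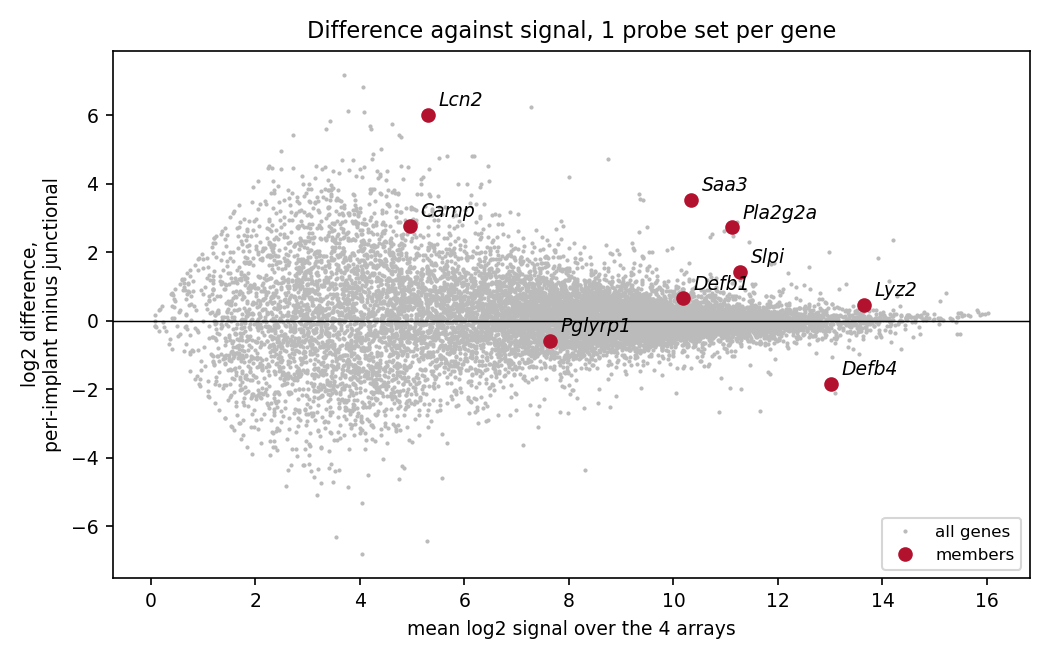
Log2 difference (peri-implant minus junctional mean, vertical axis) against mean log2 signal over the 4 arrays (horizontal axis), with 1 grey point per gene and the 9 genes in red. The grey points spread widely at low signal, where Lcn2 and Camp lie, and narrowly at high signal, and the places of the 9 genes follow from how they were chosen.

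In the assembly GRCr8 the genes are protein-coding and lie on 6 chromosomes. Pglyrp1 (87659863 to 87665048) and Saa3 (106354986 to 106358432) are on chromosome 1. Lcn2 (36078432 to 36081851) and Slpi (173501573 to 173503822) are on chromosome 3. Pla2g2a is on chromosome 5 (156359725 to 156362302), Lyz2 on chromosome 7 (54792715 to 54798060) and Camp on chromosome 8 (118720184 to 118721998). The beta-defensins are on chromosome 16, Defb1 from 77001326 to 77016068 and Defb4 from 77352911 to 77356104. They are 336.8 kb apart, and their differences had opposite signs.

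Other genes near the 9 were counted with limma's test with an intensity trend, whose Benjamini-Hochberg adjusted p over all probe sets had to be under 0.05. It called 938 of the 14217 genes (6.60%) higher and 682 (4.80%) lower in peri-implant epithelium. With limma's default prior 0 genes passed in either direction, although 5247 probe sets had an unadjusted p under 0.05. Leaving out an array also cut the calls, to 45 higher and 10 lower without junctional replicate 1 and to 46 and 9 without junctional replicate 2. Without peri-implant replicate 1 they were 104 and 124, and without peri-implant replicate 2 they were 90 and 95. Below, rose and fell mean that a gene passed with an intensity trend. Each count from a list is to be read beside these shares of all genes, 6.60% higher and 4.80% lower.

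Of 83 measured protein-coding genes within 250 kb of one of the 9, 1 rose and 4 fell, a count added after the values were seen. The one that rose was Wfdc2, a neighbour of Slpi that like it has the whey acidic protein fold. Its log2 signal was 12.78 and 12.78 on the junctional and 13.30 and 13.26 on the peri-implant arrays (adjusted p = 0.00303). The 4 that fell, likewise named after their values were seen, were St6galnac4 near Lcn2, Nbl1 near Pla2g2a, and Plxnb1 and Map4 near Camp. Beside Pla2g2a lie the related phospholipase genes Pla2g2c, Pla2g2d, Pla2g2f and Pla2g5. All 4 were below background on every array, with 5.84 as their highest log2 signal.

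Relatives of the 9 were mostly not detected. Of 70 listed, 24 were measured and 19 of these lay below background on every array. Among the 19 were the 4 listed defensins that were measured (Defb22, Defb24, Defa5 and Defa24), with 5.26 as their highest log2 signal. The 70 include Defb2 and Defb3, which RefSeq lists as names of Defb4 and which were not counted as measured. With the test, 2 rose and 0 fell, with 22 not called and a median log2 difference of -0.10. Those that rose were Pla2g12a, by 0.65 (adjusted p = 0.0235), and Spink5, by 0.32 on its brightest probe set (adjusted p = 0.0195). The other probe sets of Spink5 differed by -0.13 and 0.63. Spink5, an epidermal inhibitor of serine proteases, was on the list but is not one of the whey acidic protein relatives of Slpi. Both calls were lost with each array centred on its median and without any 1 of junctional replicate 1, junctional replicate 2, peri-implant replicate 1 or peri-implant replicate 2, each of which left 0 called. The serum amyloid relatives Saa1, Saa2 and Saa4 and the recognition proteins Pglyrp2, Pglyrp3 and Pglyrp4 had no matching probe set.

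Among other antibacterial and mucosal defence proteins more rose than fell, and most were not called. Of 36 listed, 25 were measured and 13 exceeded background in either group; 6 rose, 1 fell and 18 were not called. The median log2 difference was 0.26, or 0.00 with background raised, against 0.05 and 0.00 over all genes. Lpo, the peroxidase of saliva and milk, rose from 6.09 and 6.68 on the junctional arrays to 11.10 and 11.11 on the peri-implant arrays, at least 23.5-fold (adjusted p = 3.76e-06). Gpr15lg, a secreted epithelial peptide, rose by 2.89 (adjusted p = 8.28e-07). The calprotectin subunits S100a9 and S100a8, which withhold metal ions from bacteria, rose by 2.37 and 0.80 (adjusted p = 9.29e-07 and 0.000231), and Bpifb1, a lipid-binding airway secretion, by 1.49 (adjusted p = 0.00715). Cxcl14, an antibacterial chemokine of resting epithelium, fell to below background, at least 2.03-fold (adjusted p = 0.0332), but its second probe set differed by 0.15 upward. The number called was 3 without junctional replicate 1 or junctional replicate 2 and 4 without peri-implant replicate 1 or peri-implant replicate 2, and 0 with the default prior. Mpo, Ltf, Bpi, Elane and Ctsg had no matching probe set.

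The genes listed next act upstream of these proteins in the known induction pathways. Of 51 listed cytokines, receptors and transcription factors, 42 were measured; 14 rose, 2 fell and 26 were not called. The median log2 difference was 0.34, or 0.27 with background raised, against 0.05 and 0.00 over all genes. Of all genes 6.60% rose and 4.80% fell. In the same samples 4 of 9 neutrophil and 6 of 13 macrophage markers rose and 1 macrophage marker fell, as given below, and their part in these values was not tested.

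Among the ligands, Il1b was at 11.83 and 11.79 on the junctional and 13.38 and 13.36 on the peri-implant arrays (adjusted p = 3.76e-06). Il1a rose by 0.85 (adjusted p = 0.00443), while Il36b, an epithelial cytokine of the interleukin 1 family, fell by 1.18 (adjusted p = 0.00732). Il6 and Il17f were below background on every array, and Il17a and Il22 had no matching probe set. Among receptors and adaptors, 4 rose and 1 fell. Il1rl2, the receptor of the interleukin 36 cytokines, was at least 3.29-fold higher (adjusted p = 0.00821). Ly96 and Tlr4, which together sense lipopolysaccharide, rose by 0.74 and 0.71 (adjusted p = 0.0042 and 0.0402). Il17ra, the common interleukin 17 receptor chain, rose by 0.41 (adjusted p = 0.0332). Traf6, an adaptor of these receptors, fell by 0.51 (adjusted p = 0.0207) on its brightest probe set, while its other probe sets differed by 0.07, -0.22 and -0.63. The calls of Tlr4 and Il17ra were lost with arrays centred on the median.

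Of 14 measured transcription factors and NF-kB regulators, 8 rose and 0 fell, with a median log2 difference of 0.61. The shares of all genes that rose and fell were 6.60% and 4.80%. Nfkbiz, which encodes IkB-zeta, the nuclear partner of NF-kB on secondary response genes, was at 10.14 and 10.02 on the junctional and 11.40 and 11.35 on the peri-implant arrays (adjusted p = 0.000146). Its second probe set did not share this, with a difference of -0.02. The NF-kB subunits Nfkb1 and Nfkb2 rose by 1.20 and 1.13 (adjusted p = 0.000277 and 0.0011), and Nfkbia, the inhibitor that NF-kB itself induces, by 0.89 (adjusted p = 0.00131). Hif1a, the oxygen-regulated factor, rose by 0.94 (adjusted p = 0.000144). Bcl3, Cebpb and Cebpd, a nuclear NF-kB partner and 2 C/EBP factors, rose by 0.87, 0.81 and 0.41 (adjusted p = 0.00525, 0.00283 and 0.0364), the last not with arrays centred on the median. Rela differed by 0.05 (adjusted p = 0.867) and Stat3 by 0.35 (adjusted p = 0.0556). Over the whole group of 42, the number called was 2 without junctional replicate 1, 1 without junctional replicate 2, and 5 without peri-implant replicate 1 or peri-implant replicate 2.

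Receptors and targets of the secreted proteins gave few calls. Of 24 listed, 15 were measured; 3 rose, 0 fell and 12 were not called, with a median log2 difference of 0.18. Ccr6, a receptor for beta-defensins and Ccl20, rose by 1.22 (adjusted p = 0.0437), Plscr1, a membrane protein that binds Slpi, by 0.75 (adjusted p = 0.0487), and Tlr4 as given above. The calls of Ccr6 and Plscr1 were lost with quantile normalization, all 3 with arrays centred on the median, and all 3 without junctional replicate 1, junctional replicate 2, peri-implant replicate 1 or peri-implant replicate 2. Slc22a17, a receptor of lipocalin 2, was at 6.86 and 7.63 on the junctional and 7.58 and 7.72 on the peri-implant arrays (adjusted p = 0.51), and the groups overlapped. Elane, the elastase that Slpi inhibits, had no matching probe set.

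Since neutrophils and macrophages make several of the 9 proteins, their other markers stand here beside the values above. Of 22 neutrophil markers 9 were measured and 5 exceeded background in either group. Of the 9 markers 4 rose and 0 fell, where 6.60% and 4.80% of all genes did so. The median log2 difference was 1.21, but 0.09 with background raised. Their summed linear signal was 3907 and 3937 on the junctional and 6493 and 6742 on the peri-implant arrays. Fcgr3a rose by 1.50, the chemokine receptor Cxcr2 by 1.42, Il1r2 by 1.21 and Csf3r by 0.78 (adjusted p = 0.0153, 0.000168, 0.00206 and 0.0149). Mmp9, a protease of neutrophil granules, differed by 0.09 on its brightest probe set and by 0.57 on its other one. Mmp8, Itgam, Cxcr1 and Padi4 lay below background on every array. The granule proteins Mpo, Elane, Prtn3, Ctsg and Ltf had no matching probe set. Np4 and RatNP-3b, alpha-defensins of rat neutrophils that lie near Defb1 and Defb4 and were named after their values were seen, were below background on every array. The number called was 0 without junctional replicate 1 and 1 without junctional replicate 2, peri-implant replicate 1 or peri-implant replicate 2. The part of neutrophils in the 9 genes was not tested.

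Of 16 macrophage markers 13 were measured. Of these 6 rose, 1 fell and 6 were not called, where 6.60% of all genes rose and 4.80% fell. The median log2 difference of the 13 markers was 0.73. Their summed linear signal was 8063 and 7282 on the junctional and 12558 and 13418 on the peri-implant arrays. Fcer1g, the brightest of the 13, weighs most in this sum, at log2 11.63 and 11.48 on the junctional and 12.20 and 12.28 on the peri-implant arrays. Laptm5 rose by 1.65, Csf1r by 1.42 and Tyrobp by 1.11 (adjusted p = 0.00626, 0.0126 and 0.000869). Aif1 rose by 1.26 (adjusted p = 0.00207) on its brightest probe set, while its other probe set differed by -1.84. Mrc1, the mannose receptor, fell from 7.68 and 7.46 to below background, at least 2.22-fold (adjusted p = 0.0312). Cd68, a lysosomal marker of the lineage, differed by 0.19 (adjusted p = 0.525). The number called was 0 without junctional replicate 1 or junctional replicate 2 and 1 without peri-implant replicate 1 or peri-implant replicate 2. The part of macrophages in Lyz2 or Saa3 was not tested.

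Glandular RNA was looked for because glands secrete lysozyme, Slpi and Lpo. Of 16 gland markers 12 were measured and 3 exceeded background in either group, namely Lpo, Cst3 and Cst6. Salivary amylase, Smr3b, Aqp5, Muc5b and Pip lay below background on every array. Of the gland list, 2 rose (Lpo and Cst3) and 0 fell. Among 14 keratinocyte markers 3 rose, with Krt17, a keratin of activated and appendage epithelium, the highest at 1.83 (adjusted p = 1.25e-06). Of 9 fibroblast markers 3 rose and 1 fell, and of 9 T and B cell markers 1 rose, the lymphocyte adhesion molecule Cd2. With arrays centred on the median, the calls of Cst3, of the keratins Krt15 and Krt4 and of the collagen gene Col1a1 were lost. None of the 6 endothelial and 6 mast cell markers passed limma's test with an intensity trend. All 6 endothelial markers exceeded background in either group, and their median log2 difference was -0.55. In 4 of them the groups did not overlap with peri-implant epithelium lower, and in 0 with it higher, against 25.2% and 31.2% of all genes. The part of endothelial cells was not tested.

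**Figure D3:**
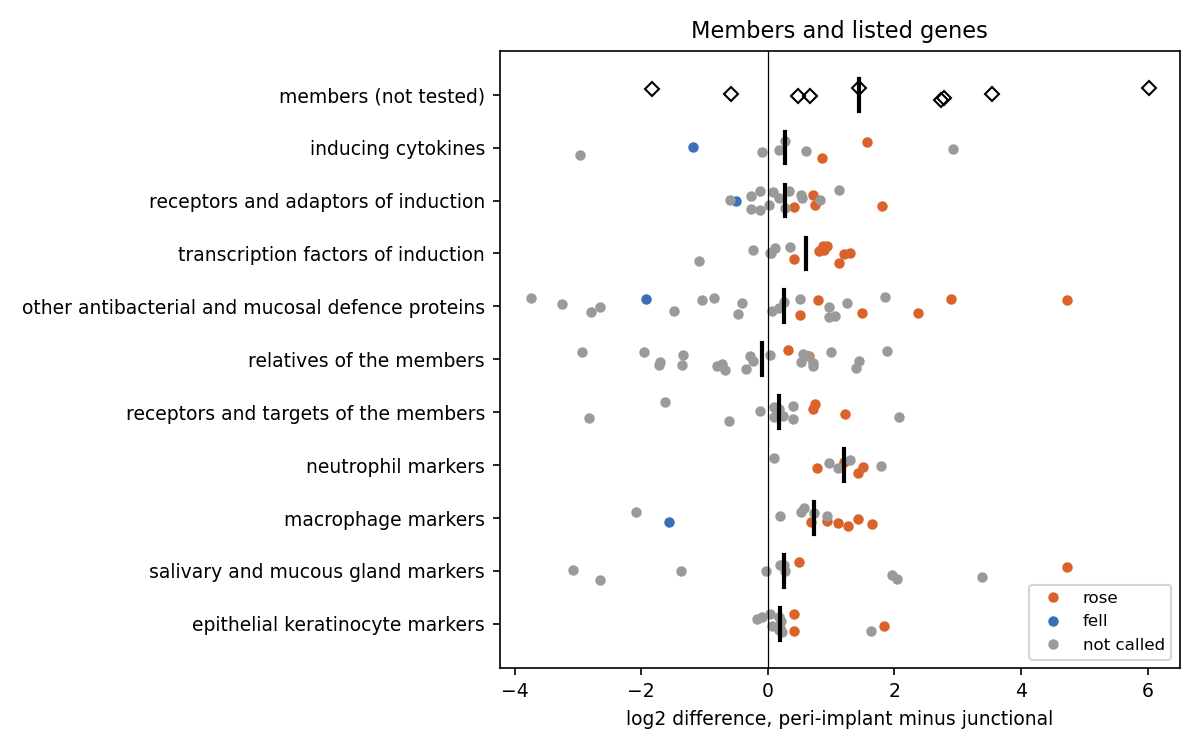
Log2 difference (peri-implant minus junctional, horizontal axis) of each measured gene in 10 lists and of the 9 genes (open diamonds, not tested), with points coloured by limma's call with an intensity trend and black bars at medians. The bar of the 9 genes is at 1.44, that of neutrophil markers at 1.21 and that of the relatives at -0.10.

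The genes with the most similar pattern over the 4 arrays were found by the root mean square distance of centred log2 values among 9720 genes above background on both arrays of a group. Nearest to Saa3 were Gbp2, an interferon-induced GTPase, at 0.09, and Cda and Scgb1a1, each at 0.12. Gbp2 and Scgb1a1 are named in the series title. Neurl3 (0.07), Otud7a (0.12) and Fads3 (0.12) were nearest to Pla2g2a. For Lcn2 the nearest were Rnase1l2 (0.62), Tnik (0.62) and Dpysl3 (0.67). All of these except Gbp2 and Scgb1a1 lay below background on both junctional arrays, where values carry no order, and so entered only through the peri-implant arrays. With 4 arrays in 2 groups, such likeness mostly restates the size of the group difference.

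**Figure D4:**
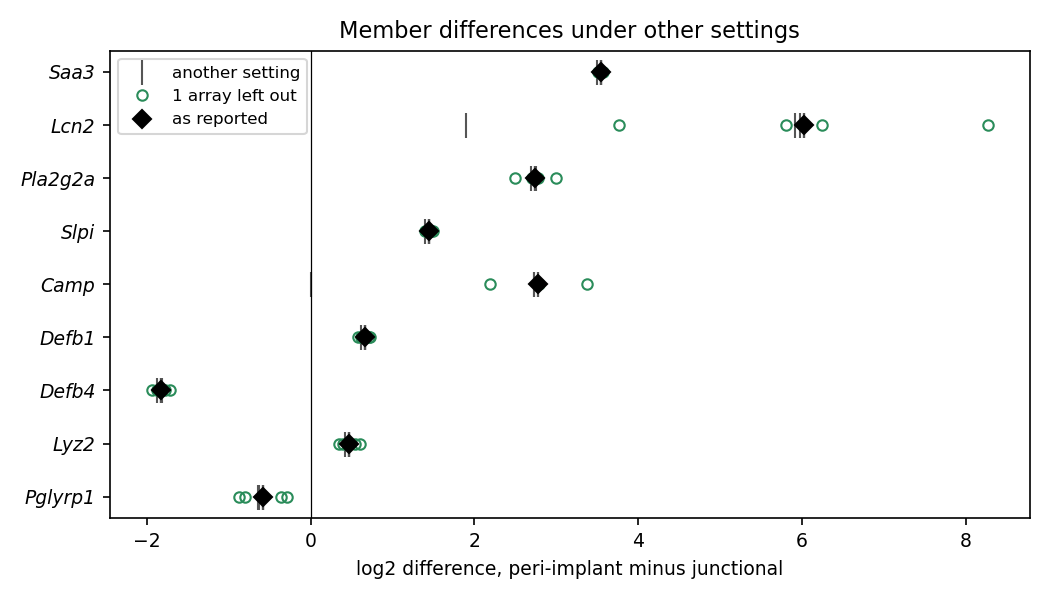
Log2 difference (peri-implant minus junctional, horizontal axis) of the 9 genes as reported (diamonds), with 1 array left out (open circles) and under other settings (ticks). Saa3, Slpi and Defb1 barely move, Lcn2 runs from 1.90 to 8.27, and Camp is at 0.00 with background raised.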

How the data were processed

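The authors deposited log2 signals of 31099 probe sets on 4 arrays. Software and normalization are not given in the sources at hand. From the values, every array had a mean linear signal of 500.19 once the top and bottom 2% were trimmed, with a floor at log2 0. Values were used as deposited, without 57 control probe sets. Per the platform annotation, 20826 probe sets had 1 gene symbol, 436 several and 9780 none. Each gene stands by the brightest of its probe sets. Folds against a group with an array at or below background are lower bounds, with that array raised to the background level.

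Groups were compared in R 4.3.3 with limma 3.58.1 (lmFit, eBayes with intensity trend and robust prior, two-sided, Benjamini-Hochberg over 31042 probe sets, threshold 0.05). In simulated data of this comparison (31042 probe sets, 5 runs), 250 probe sets were changed at each size over all runs. At sizes of 1, 2, 3 and 4 on the log2 scale, limma with this trend recovered 56%, 82%, 89.2% and 92%. Of its calls there 6.3% were false, and the default prior recovered 0. How far the simulated spread of single probe sets follows that of the real arrays was not tested. These shares therefore neither choose between the priors nor give the false share among the real calls. The 9 genes, the gene lists, the naming rule and the choice of an intensity trend were made with earlier results of these data known.

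Named genes were the 9 genes and up to 5 called genes per list by size of difference. Listed relatives, receptors or targets were named where a sentence needed them. Outside this rule, some list genes that were not called were also named, among them Rela, Stat3, Il6, Il17f and Cd68. Wfdc2, S100a8, Bcl3, Cebpb and Cebpd were added after their values were seen. Members of lists were matched by symbol, current symbol or unambiguous synonym. The 4 arrays limit the precision of every value. Promoter windows were matched by gene identifier for 6 of 9 genes. Alternatives were the default prior, quantile normalization, median centring, background raising, leaving out dim probe sets, a replicate block, leaving out each array and averaging a gene's probe sets.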

Additional observations from a re-analysis of the deposited data

How the results depend on the processing

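The 7 higher and 2 lower means of the 9 genes kept their direction in each alternative that gave a value, except Camp, which was 0.00 with background raised and had no value with dim probe sets left out. Their median difference was 0.66 with background raised and 1.05 with dim probe sets left out, and ran from 1.39 to 1.49 without a single array. With quantile normalization and with median centring the groups still did not overlap in 9 of the 9. The genes were chosen by this contrast, and Camp is counted although it lay below background on every array, so nothing is read from this. With limma's default prior the count of genes called was 0 in both directions and in every list, against 5247 probe sets at an unadjusted p under 0.05 (7686 with an intensity trend). Replicate numbers are shared between groups, but nothing shows that they pair samples: differences between replicates 1 and 2 correlated at r = 0.039 across probe sets, which are not independent. With a replicate block, 1375 genes were higher and 1021 lower, and 56 of 56 called genes of the lists and of similar pattern stayed so. Leaving out a single array left 45 to 104 genes higher and 9 to 124 lower. In the lists it left 1 to 5 inducing genes, 3 to 4 other defence proteins, 0 relatives, 0 receptors and targets, 0 to 1 neutrophil and 0 to 1 macrophage markers called; these fits have fewer samples, and the lone array is assumed to vary like the others. Median centring called 0 relatives and 0 receptors and targets, and quantile normalization called 1 receptor or target. The cause was not tested. Averaging a gene's probe sets ended the calls of Traf6, Nfkbiz, Cxcl14, Col1a1 and Dpysl3 and turned Aif1, a macrophage marker, to -0.29. Raising background gives many variances of zero, and its counts are little guide. Signals under 6.42, those of Camp and of junctional Lcn2 among them, carry no order.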
